A study of Mus musculus with 14 samples.

Results

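A set of 10 macrophage and complement genes was followed in brown adipose tissue of mice lacking Lrpprc in brown fat: Adgre1, Csf1r, Cd163, Mrc1, Cd14, Lyz2, C1qa, C1qb, C1qc and Clec10a. They were chosen by name as markers of macrophages in general and of tissue-resident macrophages, and were found through the Ensembl identifiers of the expression table. All 10 of 10 had values in the table of 35275 genes, and all 10 were among the 13079 genes tested, which had at least 1 FPKM in at least 3 of the 14 libraries. FPKM are fragments normalised to transcript length and to library depth, so levels can be set side by side between genes on that scale.

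RNA was sequenced from 14 mice of strain C57BL/6 aged 8 weeks, 1 library per animal. Controls carried floxed Lrpprc alleles (LrpprcFF) and no Cre, and knockouts carried the same floxed alleles with the Ucp1-Cre transgene (LrpprcFF Ucp1-Cre). Housing was at room temperature (22 °C, 4 controls and 4 knockouts) or at thermoneutrality (30 °C, 3 controls and 3 knockouts). The Ucp1 promoter drives Cre in thermogenic fat cells, so the macrophages themselves are not the cells the transgene targets. Brown adipocytes are the labelled cell type, but the RNA came from homogenized tissue with no step that isolates a cell type. In such bulk RNA, fewer cells of a type and less RNA per cell cannot be told apart.

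Macrophages of adipose tissue depend on signalling through the receptor encoded by Csf1r, take up debris and lipid, and secrete the components of C1q, the recognition molecule that starts the classical complement pathway. Resident macrophages of many tissues carry scavenger and lectin receptors such as Cd163, Mrc1 (CD206) and Clec10a (CD301a), while Cd14 is a co-receptor for bacterial lipopolysaccharide and Lyz2 encodes a lysozyme made by most myeloid cells. Adgre1 encodes F4/80, the surface protein by which mouse macrophages are usually recognised.

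The libraries held 15.9 to 21.3 M fragments. Lrpprc checked the labels: its level was 23.2 to 47.1 FPKM in room-temperature controls against 9.34 to 12.5 in their knockouts, and 28.6 to 31.0 in thermoneutral controls against 5.95 to 9.91 in their knockouts. Brown adipocyte markers were present in every library, with Ucp1 between 299 and 3677 FPKM. Xist ranged from 9.01 to 18.4 FPKM in all 6 animals kept at 30 °C and did not exceed 0.0141 FPKM in the 8 kept at 22 °C, so temperature and sex-linked expression cannot be told apart. Thermoneutral control 3 stood apart in skeletal muscle RNA, with 7.19 FPKM of the muscle actin Acta1 against 1636 and 5189 in the other thermoneutral controls. Room-temperature controls differed as well, with Acta1 at 123, 98.1, 1585 and 1131 FPKM in controls 1 to 4. For differences, libraries were scaled by the median ratio over genes expressed throughout (knockout values were divided by 1.05 to 1.20, control values by 0.823 to 0.947), and log2(scaled FPKM + 1) was tested with limma, with Benjamini-Hochberg adjustment over all genes tested. Log2 differences below are on that scale, which understates the change of weakly expressed genes, whereas levels are FPKM as deposited. P-values measure the spread between these animals.

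At 30 °C, 7 of the 10 genes were higher in knockouts (limma adjusted p under 0.05): Lyz2, C1qb, C1qc, Adgre1, C1qa, Csf1r and Mrc1. Their differences ran from 1.36 to 2.52 on the log2 scale, and the scaled values of these 7 did not overlap between knockouts and controls. Cd14, Clec10a and Cd163 did not pass. None of the 10 was called lower. Over all genes tested at 30 °C, 8.82% were called higher, 5.28% were called lower, and 22.2% were higher with no overlap between the groups. The median difference of the 10 genes was 1.84, against 0.065 over all genes tested.

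**Figure D1:**
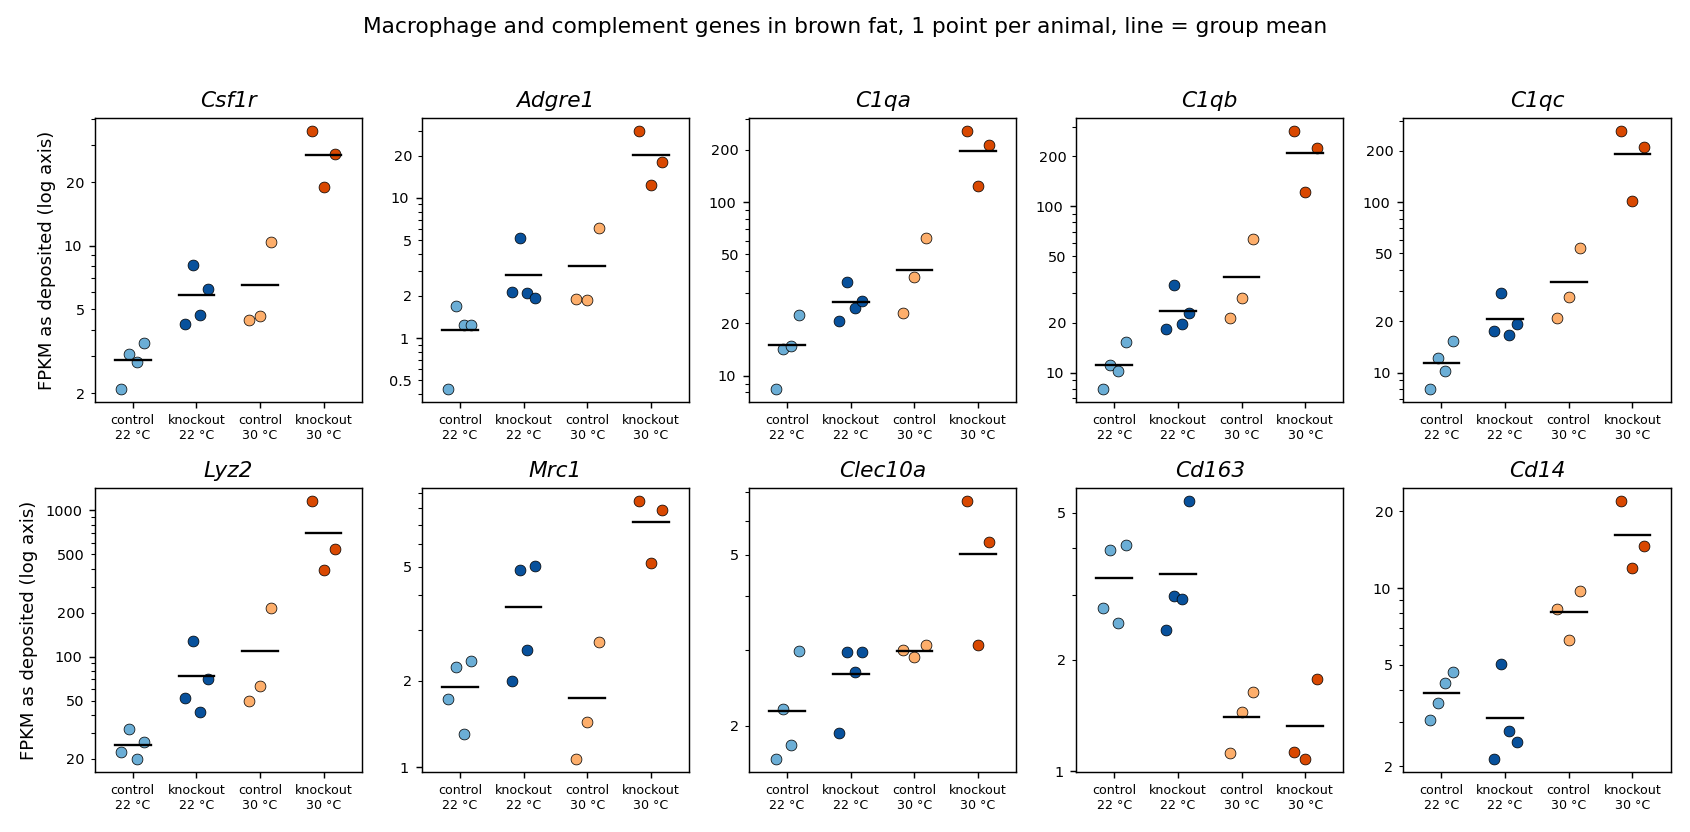
FPKM as deposited (log axis) of each of the 10 genes in every animal, by genotype and temperature, with 1 point per animal and a line at the group mean. The 3 thermoneutral knockouts stood above every other animal for 8 genes, among them Lyz2 at 389 to 1154 FPKM, but not for Cd163 (1.08 to 1.77 FPKM) or Clec10a (3.08 to 6.66 FPKM).

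Csf1r, the receptor for the macrophage growth factors Csf1 and Il34, had 4.43, 4.64 and 10.4 FPKM in the thermoneutral controls and 34.9, 18.9 and 27.2 FPKM in the thermoneutral knockouts. Every knockout was above every control, and control 3 had more than the other controls. The log2 difference was 1.68 (SE 0.29, limma adjusted p = 0.00362). Adgre1 had 1.91, 1.87 and 6.08 FPKM in these controls and 29.9, 12.4 and 18.1 FPKM in these knockouts, a log2 difference of 2.10 (SE 0.40, limma adjusted p = 0.00553). Again the lowest knockout was above the highest control, which was control 3.

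The C1q genes encode the A, B and C chains, which assemble together into the C1q molecule. C1qa had 23.0, 37.2 and 61.8 FPKM in thermoneutral controls and 257, 124 and 214 FPKM in thermoneutral knockouts. C1qb went from 21.4, 28.1 and 63.3 FPKM in controls to 284, 122 and 225 FPKM in knockouts. C1qc had 20.9, 27.7 and 53.9 FPKM in controls and 261, 102 and 210 FPKM in knockouts. For each chain knockout 2 was the lowest knockout and control 3 the highest control, with no overlap. The log2 differences were 2.01 for C1qa (SE 0.37), 2.23 for C1qb (SE 0.38) and 2.16 for C1qc (SE 0.37), with limma adjusted p of 0.00463, 0.00327 and 0.00329. Within a library the 3 chains had comparable but unequal shares of their summed FPKM. Over the 14 libraries C1qa made up 32.0% to 42.5%, C1qb 28.7% to 35.4% and C1qc 27.3% to 32.9%. The fragments behind these shares ranged from 555 to 18960. Room-temperature control 4 had C1qa at 42.5% against 28.7% for C1qb and 28.8% for C1qc. In the thermoneutral knockouts C1qa made up 32.0%, 35.5% and 33.0%, overlapping the 35.2%, 40.0% and 34.5% of thermoneutral controls.

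C1qb, C1qc and C1qa follow each other in the RefSeq gene order with no gene between them. The stretches before the start sites of 5 of the 10 genes are shown from RefSeq (build GRCm38.p6). Among them C1qb, C1qc, Lyz2 and Mrc1 rose together at 30 °C while Cd163 was not called. RefSeq entries for C1qa, Adgre1 and Clec10a were not available. Csf1r, which was called, and Cd14, which was not, were left out of the search, so the 5 are a selection of the 10. Capitals mark GAGGAA or its reverse complement TTCCTC, the core bound by Ets-family factors such as PU.1, the product of Spi1, and TGCTGA or its reverse complement TCAGCA, a half-site of Maf factors. All are written 5′ to 3′ on the strand of the gene and end just before the annotated start of the gene.
C1qb (chr4:136886201-136886450, minus strand): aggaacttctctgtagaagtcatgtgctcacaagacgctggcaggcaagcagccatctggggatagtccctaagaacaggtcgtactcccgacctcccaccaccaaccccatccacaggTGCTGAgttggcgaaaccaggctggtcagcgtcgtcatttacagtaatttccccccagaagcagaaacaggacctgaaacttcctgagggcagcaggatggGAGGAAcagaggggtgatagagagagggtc
C1qc (chr4:136893066-136893164, minus strand): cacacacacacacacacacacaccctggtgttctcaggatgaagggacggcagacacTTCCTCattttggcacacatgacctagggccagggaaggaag
Lyz2 (chr10:117282322-117282522, minus strand): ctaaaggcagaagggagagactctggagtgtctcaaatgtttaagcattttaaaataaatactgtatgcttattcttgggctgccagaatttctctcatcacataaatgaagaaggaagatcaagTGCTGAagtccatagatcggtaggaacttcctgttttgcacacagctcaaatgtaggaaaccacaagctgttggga
Mrc1 (chr2:14229164-14229391, plus strand): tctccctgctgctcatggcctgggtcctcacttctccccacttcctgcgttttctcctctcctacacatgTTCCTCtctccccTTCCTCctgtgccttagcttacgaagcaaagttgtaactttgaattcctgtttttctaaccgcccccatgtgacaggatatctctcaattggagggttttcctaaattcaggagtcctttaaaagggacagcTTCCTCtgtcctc
Cd163 (chr6:124304401-124304650, plus strand): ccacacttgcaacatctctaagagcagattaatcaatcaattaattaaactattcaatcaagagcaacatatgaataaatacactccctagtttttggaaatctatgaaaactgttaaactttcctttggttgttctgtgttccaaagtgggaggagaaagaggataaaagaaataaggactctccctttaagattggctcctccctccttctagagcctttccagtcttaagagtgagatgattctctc
C1qb held 1 GAGGAA and 1 TGCTGA, C1qc held 1 TTCCTC, Mrc1 held 3 TTCCTC, Lyz2 held 1 TGCTGA, and Cd163 held neither motif in the window shown. Only these exact letters were searched for, so a window without a mark can still hold other forms of the sites. The 2 motifs do not overlap in any of the stretches. Of 32851 promoter windows of 250 bases in the same RefSeq table, 23.3% held GAGGAA on either strand and 16.1% held TGCTGA on either strand. The windows of C1qc, Lyz2 and Mrc1 were shorter, at 99, 201 and 228 bases.

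Lyz2, the lysozyme of macrophages and other myeloid cells, was the most abundant of the 10 genes in every group by its mean. Its levels were 49.6, 62.6 and 215 FPKM in the thermoneutral controls and 1154, 389 and 542 FPKM in the thermoneutral knockouts. The groups did not overlap, but control 3 and knockout 1 lay far above the rest of their groups. The log2 difference was 2.52 (SE 0.53, limma adjusted p = 0.00891), and it missed the threshold when only the thermoneutral groups were fitted (2.48, limma adjusted p = 0.0568). A near-identical copy, Lyz1, matched the Lyz2 transcript at 95.8% over 1264 bases, so the counting could move fragments between them. Lyz1 took 1.27% to 4.84% of the fragments of the pair in the 14 libraries, and its own difference was 1.08 (SE 0.39, limma adjusted p = 0.0845).

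Mrc1, the mannose receptor of resident and alternatively activated macrophages, had 1.07, 1.44 and 2.74 FPKM in thermoneutral controls and 8.46, 5.14 and 7.87 FPKM in thermoneutral knockouts. All knockouts were above all controls, with a log2 difference of 1.36 (SE 0.30, limma adjusted p = 0.0100). Clec10a, a galactose-type lectin of macrophages and dendritic cells, had 2.99, 2.89 and 3.09 FPKM in these controls and 6.66, 3.08 and 5.34 FPKM in these knockouts. Knockout 2 was at the level of the controls and the other knockouts were above them, and the difference of 0.31 did not pass (SE 0.21, limma adjusted p = 0.381). Single knockouts moved this value both ways: without knockout 2 it was 0.58 and passed (limma adjusted p = 0.0446), and without knockout 1 it was 0.099 (limma adjusted p = 0.851). It did not pass under the other alternatives. Clec10a shares 96.7% of 704 aligned bases with Mgl2, whose levels were 5.62, 5.40 and 6.57 FPKM in controls and 3.93, 5.37 and 11.7 FPKM in knockouts, so the assignment of fragments between the pair is uncertain.

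Cd163, the scavenger receptor that takes up complexes of hemoglobin and haptoglobin, was the only gene of the 10 with a difference below 0 at 30 °C. It had 1.12, 1.44 and 1.64 FPKM in thermoneutral controls and 1.13, 1.08 and 1.77 FPKM in thermoneutral knockouts. The groups overlapped over most of their range, and the log2 difference was -0.22 with a 95% confidence interval of -0.70 to 0.26 (limma adjusted p = 0.573). That interval lies below the intervals of the 7 called genes, the lowest of which was 0.72 to 1.99 for Mrc1. Cd14 had 8.25, 6.24 and 9.74 FPKM in these controls and 21.9, 12.0 and 14.6 FPKM in these knockouts. As deposited these values do not overlap, but after scaling they did, and the difference of 0.62 did not pass (95% confidence interval 0.09 to 1.16, limma adjusted p = 0.117). Cd14 passed with values as deposited (0.90, limma adjusted p = 0.0173), with libraries brought to an equal nuclear total (0.76, limma adjusted p = 0.0473), with sample weights (0.68, limma adjusted p = 0.0429) and without knockout 2 (0.82, limma adjusted p = 0.0466). Without knockout 1, the highest of these animals, it was 0.37 (limma adjusted p = 0.416), and it did not pass under the other alternatives.

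At 22 °C, none of the 10 genes was called between knockouts and controls. Over all genes tested at 22 °C, 0.910% were called higher and 1.06% lower, so few genes passed in this comparison. The median difference of the 10 genes was 0.54, against 0.0024 over all genes tested. At an unadjusted p under 0.05, 3 of the 10 were higher, Csf1r, Lyz2 and C1qb, where 7.80% of all genes tested were, and 1 was lower, Cd14, where 7.95% were. Csf1r, Lyz2 and C1qb were also the 3 whose scaled values did not overlap, with all knockouts higher, as for 4.85% of all genes tested. With limma voom on whole fragments recovered from the FPKM, 0 of the 10 were called as well.

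Lyz2 had 22.4, 31.8, 20.0 and 26.1 FPKM in room-temperature controls and 52.3, 128, 41.8 and 70.5 FPKM in room-temperature knockouts, a log2 difference of 1.10 (SE 0.46, limma adjusted p = 0.258). Knockout 2 was the highest and no knockout was within the range of the controls. Csf1r had 2.10, 3.05, 2.80 and 3.47 FPKM in controls and 4.26, 8.09, 4.72 and 6.26 FPKM in knockouts, a log2 difference of 0.57 (SE 0.25, limma adjusted p = 0.2996). C1qb had 7.98, 11.1, 10.2 and 15.2 FPKM in controls and 18.2, 33.5, 19.6 and 22.8 FPKM in knockouts, a log2 difference of 0.73 (SE 0.33, limma adjusted p = 0.304). These 3 genes did pass when FPKM were used as deposited, at 0.80 for Csf1r, 1.40 for Lyz2 and 1.01 for C1qb (limma adjusted p = 0.0364, 0.0408 and 0.0413). On deposited values 24.2% of all genes tested were called higher at 22 °C, against 3 of these 10, and the median of all genes shifted, by 0.24 at 22 °C and 0.31 at 30 °C.

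C1qa had 8.40, 14.3, 14.7 and 22.5 FPKM in room-temperature controls and 20.5, 34.6, 24.5 and 27.1 FPKM in their knockouts, a log2 difference of 0.56. C1qc had 8.03, 12.2, 10.3 and 15.2 FPKM in these controls and 17.6, 29.1, 16.5 and 19.3 FPKM in these knockouts, a log2 difference of 0.52. Control 4 was the highest control and knockout 2 the highest knockout for each of the C1q genes. Adgre1 had 0.436, 1.68, 1.24 and 1.24 FPKM in controls and 2.14, 5.17, 2.11 and 1.95 FPKM in knockouts, a log2 difference of 0.62. The lowest of these values rests on 29 fragments. Mrc1 had 1.72, 2.24, 1.31 and 2.34 FPKM in controls and 2.01, 4.87, 2.57 and 5.03 FPKM in knockouts, a log2 difference of 0.41, with knockouts 2 and 4 apart from the rest. The limma adjusted p of these 4 genes lay between 0.419 and 0.478, and their scaled values overlapped between genotypes.

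Cd14 was the 1 gene of the 10 with an unadjusted p under 0.05 in the other direction at 22 °C. It had 3.04, 3.54, 4.24 and 4.67 FPKM in controls and 2.14, 5.04, 2.76 and 2.49 FPKM in knockouts. As deposited, knockout 2 was above every control and the other 3 below every control. The test used scaled values, where knockout values are lowered and control values raised, and there too the groups overlapped. The log2 difference was -0.52 (SE 0.22, limma adjusted p = 0.254). Cd163 had 2.77, 3.97, 2.52 and 4.09 FPKM in controls and 2.41, 2.97, 2.92 and 5.37 FPKM in knockouts (log2 difference -0.23, 95% confidence interval -0.65 to 0.19). Clec10a had 1.67, 2.18, 1.81 and 2.98 FPKM in controls and 1.92, 2.97, 2.67 and 2.96 FPKM in knockouts (log2 difference -0.0037, 95% confidence interval -0.40 to 0.40). For Cd163 and Clec10a the knockouts overlapped the range of the controls.

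**Figure D2:**
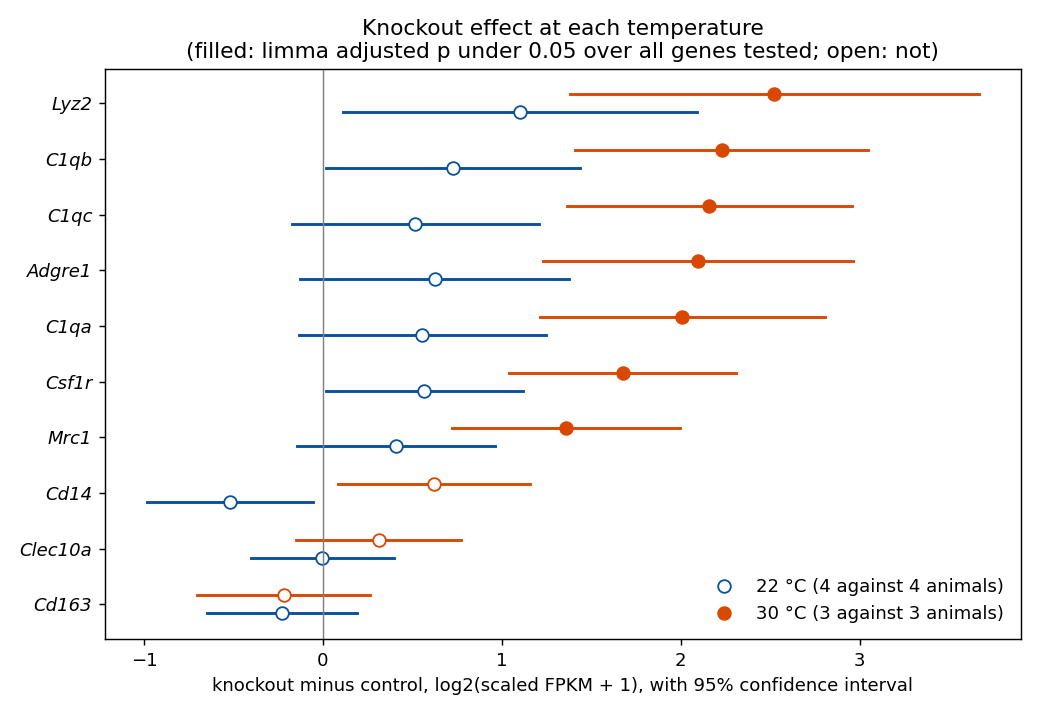
Knockout minus control for the 10 genes at 22 °C and 30 °C on the log2(scaled FPKM + 1) scale, with 95% confidence intervals from limma; filled points have an adjusted p under 0.05. The 7 called genes had differences of 1.36 to 2.52 at 30 °C, and no gene was called at 22 °C.

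A larger knockout difference at 30 °C than at 22 °C did not pass the test of the difference itself for any of the 10 genes. Over all genes tested, 0% were called higher and 0% were called lower in this interaction, so the comparison had no calls to set the members against. At an unadjusted p under 0.05, 7 of the 10 had a larger difference at 30 °C, where 8.73% of all genes tested did. They were Adgre1, Csf1r, Mrc1, Cd14, C1qa, C1qb and C1qc. The largest of these were C1qc, at 1.64 (SE 0.49, limma adjusted p = 0.213), C1qb, at 1.50 (SE 0.50, limma adjusted p = 0.250), and Adgre1, at 1.47 (SE 0.53, limma adjusted p = 0.272). Cd14 had an interaction of 1.14 (SE 0.33) and the lowest adjusted p of the 10, 0.210. Without thermoneutral knockout 2, the lowest of its group for all 10 genes, C1qc passed at 2.06 (limma adjusted p = 0.0469). With limma voom on recovered fragments none of the 10 passed. As temperature goes with the sex-linked difference given above, this interaction cannot be told apart from one of genotype with sex-linked expression.

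Between temperatures, 7 of the 10 genes differed in controls and all 10 in knockouts. In controls, Cd163 was higher at 22 °C, where 18.2% of all genes tested were called higher, and Csf1r, Cd14, Lyz2, C1qa, C1qb and C1qc were lower at 22 °C, where 20.6% were called lower. In knockouts, Cd163 was higher at 22 °C (21.8% of all genes tested) and the other 9 were lower (29.4%). These comparisons share their animals with the genotype comparisons and carry the sex-linked difference given above.

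Cd163 was 0.94 higher at 22 °C than at 30 °C in controls (SE 0.21, limma adjusted p = 0.00446) and 0.93 higher in knockouts (SE 0.21, limma adjusted p = 0.00280). Its 8 room-temperature values, from 2.41 to 5.37 FPKM, were all above its 6 thermoneutral values, from 1.08 to 1.77 FPKM. C1qb showed the opposite order, at -1.46 in controls (SE 0.36, limma adjusted p = 0.00717) and -2.96 in knockouts (SE 0.36, limma adjusted p = 7.27e-05), 22 °C minus 30 °C. Lyz2 was at -1.68 in controls (SE 0.50, limma adjusted p = 0.0178) and -3.11 in knockouts (SE 0.50, limma adjusted p = 0.000340). Cd14 was at -0.81 in controls (SE 0.23, limma adjusted p = 0.0155) and -1.96 in knockouts (SE 0.23, limma adjusted p = 6.82e-05).

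The control comparison leaned on thermoneutral control 3, which had the highest level of its group for all 10 genes and almost no skeletal muscle RNA. Without it, 3 of the 10 were called (Cd163, C1qb and C1qc) and Csf1r stood at -0.47 (limma adjusted p = 0.166), Cd14 at -0.69 (0.0656), Lyz2 at -1.04 (0.0859) and C1qa at -0.90 (0.0659), each with limma. Leaving out the highest control can only raise the knockout difference at 30 °C, so this omission cannot show whether that difference is robust. The same 7 genes were then called and the median of the 10 was 2.19. Without thermoneutral knockout 1 the median of the 10 was lower than with all animals, and the same 7 genes were called. Csf1r in the control comparison also missed the threshold without room-temperature control 1, 2 or 3, with limma adjusted p of 0.0840, 0.0539 and 0.0547. It missed it with no filter as well (limma adjusted p = 0.0639). Without the 2 room-temperature controls whose identifiers begin with R, 5 of the 10 were called, and Csf1r (limma adjusted p = 0.0560) and Lyz2 (limma adjusted p = 0.0678) missed the threshold. In the knockout comparison Mrc1 (-0.76, limma adjusted p = 0.0339) and Clec10a (-0.60, limma adjusted p = 0.0231) were the weakest calls. Both missed the threshold without room-temperature knockout 1 and without thermoneutral knockout 1 or 3, and Mrc1 also without room-temperature knockout 3. With quantile normalization both missed it too (limma adjusted p = 0.0764 for Mrc1 and 0.0851 for Clec10a). Mrc1 missed it with no filter (limma adjusted p = 0.0654), and Clec10a when only the knockout groups were fitted (limma adjusted p = 0.0512).

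Ordered by mean FPKM, Lyz2 came first in every group and the C1q genes followed. In room-temperature controls Lyz2 was at 25.1 ± 5.13 FPKM (SD, n = 4), C1qa at 14.98 ± 5.78, C1qc at 11.4 ± 3.04 and C1qb at 11.1 ± 3.02, and each of these overlapped with its neighbour. Below a gap came Cd14 at 3.87 ± 0.724, Cd163 at 3.34 ± 0.808, Csf1r at 2.86 ± 0.578, Clec10a at 2.16 ± 0.587, Mrc1 at 1.90 ± 0.481 and Adgre1 at 1.15 ± 0.520 FPKM, again with overlap between neighbours. In thermoneutral knockouts the order was Lyz2 at 695 ± 405 FPKM (SD, n = 3), C1qb at 210 ± 81.7, C1qa at 198 ± 67.9, C1qc at 191 ± 81.0, Csf1r at 27.0 ± 8.00, Adgre1 at 20.2 ± 8.95, Cd14 at 16.2 ± 5.16, Mrc1 at 7.16 ± 1.77, Clec10a at 5.02 ± 1.81 and Cd163 at 1.33 ± 0.387. Cd163 thus stood at rank 6 of the 10 in room-temperature controls and at rank 10 in both thermoneutral groups, while Adgre1 stood at rank 10 and rank 6 in room-temperature controls and thermoneutral knockouts.

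Set against Csf1r in the same animal, Cd163, Cd14 and Clec10a were lower in every knockout than in every control of the same temperature. All of these ratios share the Csf1r level, which was higher in every knockout than in every control at both temperatures. A gene with an unchanged level would therefore also have a lower ratio in knockouts. The share of all genes with such a lower ratio was not computed, so whether the lower ratios are particular to these 3 genes was not tested. The ratio of Cd163 to Csf1r was 0.899 to 1.32 in room-temperature controls, 0.368 to 0.858 in room-temperature knockouts, 0.158 to 0.311 in thermoneutral controls and 0.0323 to 0.0652 in thermoneutral knockouts. No group overlapped with the next. The log2 ratio of knockouts minus controls was -1.01 at 22 °C (two-sided exact permutation p = 0.0286) and -2.23 at 30 °C (two-sided exact permutation p = 0.1), the smallest p that 4 against 4 and 3 against 3 animals allow. Cd14 per Csf1r was at -1.39 and -1.15, and Clec10a per Csf1r at -0.71 and -1.45, at 22 °C and 30 °C, with the same p at each temperature and no overlap between the groups. For Mrc1 the log2 ratio differed by -0.15 at 22 °C (exact permutation p = 0.514) and by -0.016 at 30 °C (exact permutation p = 1). C1qb per Csf1r was 0.43 higher and Adgre1 per Csf1r 0.63 higher in thermoneutral knockouts, each without overlap (exact permutation p = 0.1). Over the 18 ratios tested, none passed after Benjamini-Hochberg adjustment (lowest adjusted value 0.171), and these ratios were chosen after the levels had been seen.

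**Figure D3:**
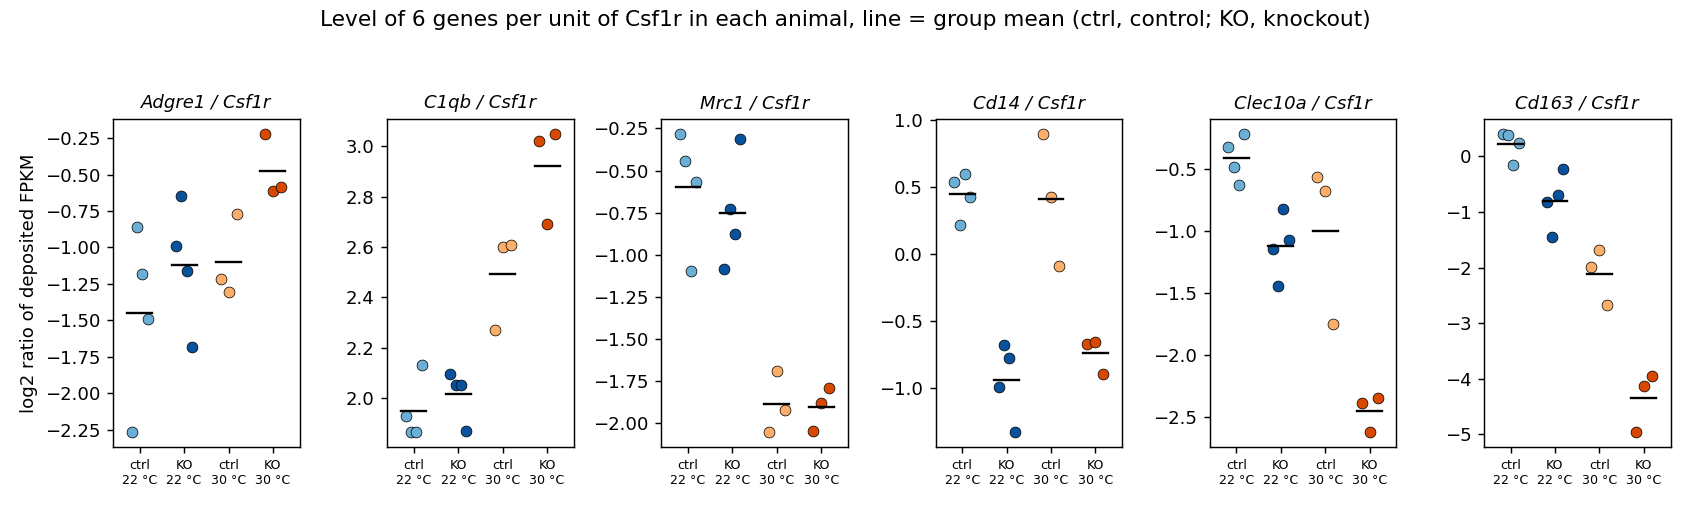
Log2 ratio of deposited FPKM to that of Csf1r for 6 of the genes, 1 point per animal, by group, with a line at the group mean; a ratio within a library does not depend on its scaling. Cd163 per Csf1r was lower in each group than in the one to its left, while Mrc1 per Csf1r lay at similar values in knockouts and controls of the same temperature.

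Animals that were high for 1 of the genes tended to be high for others. Thermoneutral knockout 1 was the highest of its group for 9 of the 10 genes, Cd163 excepted, and knockout 2 was the lowest for all 10. Among room-temperature knockouts, knockout 2 was the highest for 7 genes and knockout 1 the lowest for 7. Within groups, after the group means were subtracted, the median Pearson correlation of a gene with the other 9 was highest for Csf1r (0.89), C1qb (0.89) and C1qc (0.88), and lowest for Cd163 (0.38), over 14 animals that share their library and tissue sample across genes. Across all animals, without that subtraction, the median was 0.98 for Csf1r and -0.69 for Cd163.

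The genes outside the listed sets that followed the mean of the 10 most closely over all 14 animals were Dock2 (r = 0.99), a Rac activator of blood cells, Ly86 (0.99), a partner of the receptor Cd180, Ptpn7 (0.99), a phosphatase of blood cells, Ctsh (0.99), a lysosomal protease, and Cd72 (0.99), a surface protein of B cells. Within groups the closest were Pld4 (r = 0.97), an endolysosomal nuclease, H2-DMb1 (0.97), which loads peptides onto class II molecules, Selplg (0.96), the ligand of P-selectin, Dock2 (0.96) and H2-Aa (0.96), a class II chain. H2-Aa went from 30.2 ± 9.57 FPKM in room-temperature controls to 226 ± 96.0 in thermoneutral knockouts, and Dock2 from 0.500 ± 0.178 to 7.33 ± 3.18 FPKM. The correlation was over 0.9 for 564 of 12885 genes compared across all animals, so many genes shared this pattern.

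Macrophage genes beyond the 10 moved the same way at 30 °C: 13 of 15 were higher in knockouts, 0 lower, with a median difference of 1.90. Over all genes tested, 8.82% were called higher and 5.28% lower at 30 °C. Cd68, a lysosomal glycoprotein, went from 12.7 ± 8.09 to 102 ± 62.9 FPKM (log2 difference 2.61, SE 0.48, limma adjusted p = 0.00448). Ctss, a lysosomal protease, differed by 2.87 (limma adjusted p = 0.0147) and Tyrobp, an adaptor of activating receptors, by 2.24 (0.00891). Mertk, a receptor for apoptotic cells, at 0.15, and Aif1, at 0.78, did not pass. At 22 °C 0 of these 15 were called, with a median of 0.54. Between temperatures, 5 of the 15 were lower at 22 °C in controls and 14 of the 15 in knockouts, and 0 were higher. Of all genes tested, 20.6% were called lower at 22 °C in controls and 29.4% in knockouts.

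Of 18 listed genes that mark long-term resident or alternatively activated macrophages, 11 were tested, 3 rose at 30 °C and 0 fell, with a median of 0.28. The share called higher at 30 °C over all genes tested was 8.82%. Folr2, a folate receptor, went from 4.09 ± 0.732 to 13.9 ± 6.33 FPKM (1.21, limma adjusted p = 0.0100), Stab1, a scavenger receptor, from 13.2 ± 1.12 to 36.4 ± 5.58 FPKM (1.10, limma adjusted p = 0.0101), and Pf4 from 10.2 ± 3.39 to 30.7 ± 11.5 FPKM (1.20, limma adjusted p = 0.0401). Lyve1 stood at 0.50, F13a1 at 0.22, Cbr2 at 0.28 and Retnla at -0.0011, none past the threshold. Timd4, a marker of self-maintaining resident macrophages, was at 0.232 ± 0.277 FPKM in controls and 0.287 ± 0.243 FPKM in knockouts and too low to be tested. At 22 °C 0 of the 11 were called, with a median of -0.04.

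Among the ligands, receptors and factors of the Csf1 axis, 10 of 11 were tested, and 4 rose at 30 °C while 0 fell (median 0.85). The share called higher over all genes tested was 8.82%. Spi1, the gene for the macrophage factor PU.1 and also among the 15 macrophage genes above, went from 6.43 ± 3.92 to 45.6 ± 27.6 FPKM (2.33, limma adjusted p = 0.00463), Csf2ra, a receptor chain for GM-CSF, from 22.5 ± 8.90 to 160 ± 95.8 FPKM (2.39, limma adjusted p = 0.00298), and the factors Irf8 and Runx1 differed by 1.56 and 0.56 (limma adjusted p = 0.0165 and 0.0364). The ligands did not pass: Csf1 was at 0.70 (limma adjusted p = 0.0979) and Il34 at -0.16. The factor Maf stood at 0.93 without passing. At 22 °C 0 were called (median 0.23).

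Complement genes other than C1q split. Of 24 listed, 23 had a value and 16 were tested, of which 5 rose and 2 fell at 30 °C (median 0.37). The shares over all genes tested were 8.82% higher and 5.28% lower. Among those that rose were the receptors C3ar1 (1.87, limma adjusted p = 0.00156) and C5ar1 (2.04, limma adjusted p = 0.00248), Itgax (2.27, limma adjusted p = 0.00721), a chain of complement receptor 4, and properdin, Cfp (1.29, limma adjusted p = 0.0144). Cfd, the factor D or adipsin that fat cells secrete, fell from 3777 ± 447 to 2018 ± 703 FPKM (-1.26, limma adjusted p = 0.0253), as did Cd59a (-0.63, limma adjusted p = 0.00463), an inhibitor of the membrane attack complex. C1ra and C1s1, the proteases that bind C1q, stood at 0.67 and 0.38, and C3, at -0.35, did not pass either. At 22 °C 0 were called (median -0.17).

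Of the Cd14 and Tlr4 signalling genes, 10 of 11 were tested and 0 were called at either knockout comparison (median 0.20 at 30 °C and -0.01 at 22 °C). Tlr4 itself was at 0.24 and its partner Ly96 at 0.62 at 30 °C. Among 10 genes of hemoglobin, heme and iron handling, to which Cd163 is tied, 3 rose at 30 °C and 0 fell (median 0.25), and 1 rose at 22 °C (median 0.02). The shares called higher over all genes tested were 8.82% at 30 °C and 0.910% at 22 °C. Hmox1, the enzyme that degrades heme, was the gene called at both temperatures, from 4.79 ± 0.821 to 22.5 ± 10.2 FPKM at 22 °C (1.65, limma adjusted p = 0.0342) and from 10.7 ± 4.16 to 48.4 ± 29.3 FPKM at 30 °C (1.70, limma adjusted p = 0.0161). Slc11a1, a metal transporter of phagosomes, at 2.29, and the ferritin chain Ftl1, at 1.05, also rose at 30 °C, whereas Hp, the haptoglobin gene, was at -0.16.

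Markers of other cell types were measured beside these genes at 30 °C, where 8.82% of all genes tested were called higher and 5.28% lower. Of the monocyte markers 5 were tested and 0 called, with differences from 0.29 for Ace to 1.46 for Nr4a1 (limma adjusted p = 0.215). Their summed level as deposited did not overlap between groups, at 77.6 to 299.7 FPKM in controls and 437 to 604 FPKM in knockouts. Most of that sum was Nr4a1, an orphan nuclear receptor gene expressed in other cell types as well, at 169 ± 111 FPKM in controls and 487 ± 78.7 FPKM in knockouts (SD, n = 3 each). S100a4 stood at 0.91 (limma adjusted p = 0.131) and Ccr2, the chemokine receptor of recruited monocytes, at 0.57 (limma adjusted p = 0.183). Dendritic cell markers had 0 of 3 tested called, with sums of 6.50 to 10.2 FPKM in controls and 11.3 to 16.7 FPKM in knockouts. All sums given here are of FPKM as deposited, without the scaling used in the tests. On deposited values the median log2 difference of all genes was 0.31 at 30 °C, so gaps between sums are partly a matter of scaling. Mast cell markers had 0 of 5 called, with sums of 8.78 to 16.6 and 13.8 to 32.3 FPKM, and lymphocyte markers 0 of 7. Of the neutrophil markers 4 were tested and 0 were called higher, with a median of 0.28. Elane was lower (-1.02), while the other 3 tested, S100a8, S100a9 and Csf3r, had differences above 0 without passing. Csf3r stood at 0.52 (limma adjusted p = 0.184). The listed Ly6g, Camp and Mpo had mean levels of at most 0.0547 FPKM in every group. Fibroblast markers moved with the macrophage genes: 4 of 6 were higher (Col1a1, Col3a1, Dcn and Pdgfra), and their summed level was 218 to 247 FPKM in controls and 497 to 912 FPKM in knockouts. Of 6 endothelial markers, Cldn5 was higher (2.39) and 0 were lower, with a median of -0.26. Their sums, 279 to 287 FPKM in controls and 786 to 852 FPKM in knockouts, differed mainly by Cldn5, at 97.3 FPKM on average in controls and 631 FPKM in knockouts. Of 6 brown adipocyte markers 5 were lower (Adipoq, Cidec, Fabp4, Cidea and Ucp1), with a summed level of 10970 to 13396 FPKM in controls and 7285 to 9304 FPKM in knockouts. Lymphocyte markers summed to 8.07 to 22.7 FPKM in controls and 10.5 to 51.7 FPKM in knockouts, skeletal muscle markers to 17.9 to 10777 FPKM in controls and 2024 to 8234 FPKM in knockouts, with 0 of 6 muscle genes called. At 22 °C, Adipoq and Cidec were lower in knockouts and 0 genes of the other 8 cell-type lists were called. The share called lower at 22 °C over all genes tested was 1.06%. The part of these cell types in the differences of the 10 genes was not tested.

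**Figure D4:**
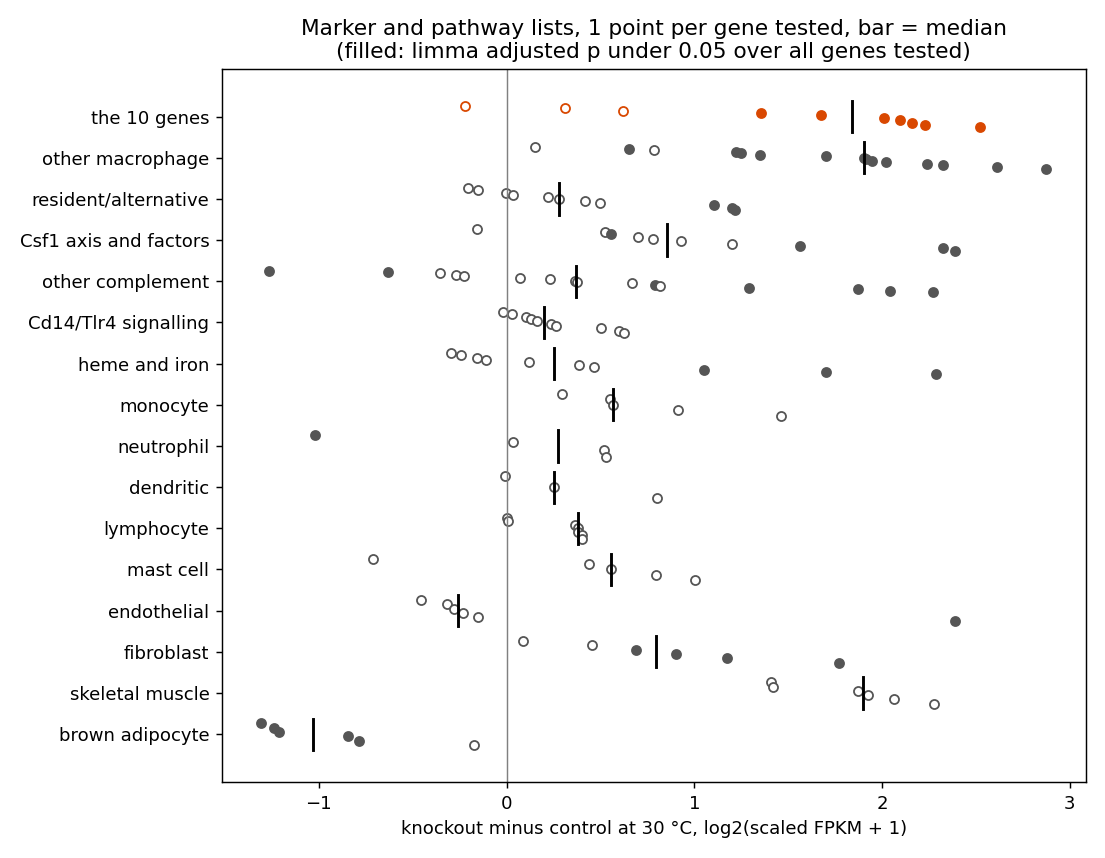
Knockout minus control at 30 °C for the tested genes of each list, 1 point per gene on the log2(scaled FPKM + 1) scale, with the list median as a bar and filled points at an adjusted p under 0.05. The 10 genes and the other macrophage genes had medians of 1.84 and 1.90, the resident or alternatively activated markers 0.28, and the brown adipocyte markers -1.03.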

How the data were processed

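The authors deposited gene values as FPKM in a table with 1 column for each animal, under Ensembl gene identifiers. The submitters' processing notes name the build mm9, and the aligner, the counter, the use of strand and the annotation are not given in the sources used here. Symbols were matched for 34490 of 35275 genes with GENCODE M21, and promoters came from RefSeq (GRCm38.p6), so no gene coordinates of the authors' build are given. Low FPKM are whole multiples of the value of 1 fragment, and whole fragments were recovered in every library for 13042 of 13079 genes tested (within 0.001 fragments), which gave the depth. Fragment numbers speak only to counting error, because PCR copies are not separate molecules.

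Groups were taken from genotype and housing temperature in the labels. The labels carry animal identifiers and no pairing, and 2 room-temperature controls (3 and 4) have identifiers beginning with another letter (R). Replicate numbers only name animals. Libraries were scaled by the median ratio to the geometric mean over 10049 nuclear genes with at least 1 FPKM in every library, and log2(scaled FPKM + 1) was fitted with limma 3.58.1 (R 4.3.3; a mean for each of 4 groups, eBayes with trend, all 14 libraries). An adjusted p under 0.05 was called. The pseudocount of 1 understates changes of weak genes. The scripts were tested on simulated data. Tables and plots used Python 3.11.15, numpy 2.4.6, pandas 2.3.3, scipy 1.17.1 and matplotlib 3.10.9, and near-identical copies were aligned with blastn 2.17.0.

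The 10 genes and the 15 lists were chosen with earlier results of these data known. Named were the 10 genes, the copies Lyz1 and Mgl2, Lrpprc, the 5 genes most correlated with the mean of the 10 over all animals and the 5 within groups, and up to 4 called genes per direction of the pathway lists. Other list genes named with values were chosen after their values were seen. Some listed genes are counted in their lists but not reported by name here. Alternatives were a pseudocount of 0.1, no filter, a minimum mean of 5 FPKM, other scalings (FPKM left as deposited, quantiles, an equal nuclear total), fits to the compared groups, sample weights, eBayes without trend, leaving out animals and, added after the data were seen, limma voom on recovered fragments.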

Additional observations from a re-analysis of the deposited data

Results flagged for a closer look

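Adgre1 in room-temperature knockout 2, at 5.17 FPKM, lay far from the other knockouts of its group, which had 1.95 to 2.14 FPKM. Its gap to the nearest animal was larger than Dixon's 95% limit for 4 samples. Of the 20 groups of 4 animals examined this way (10 genes in the room-temperature controls and knockouts), 1 was past the limit, and chance alone passes about 1 in 20. The same animal was the highest of its group for 7 of the 10 genes. Without it the knockout difference of Adgre1 at 22 °C was 0.39 (limma adjusted p = 0.728).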

How the results depend on the processing

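Of 1137 values recomputed under alternatives, 1080 were the same, 23 weaker, 11 stronger, 2 moved and 21 changed sign. For single genes, the same meant an unchanged direction and side of the threshold. For counts of genes called it meant a count within a set ratio of the reported one. For medians it meant a move smaller than the SD between animals of a group. The number of the 10 genes called at 30 °C was 6 to 9 in every alternative. At 22 °C it was 3 with FPKM as deposited and 0 otherwise. The temperature comparison in controls had 3 to 7 called when single animals were left out, and the interaction 0 to 1. With a mean FPKM of at least 5, which keeps 7 of the 10 genes, the median temperature difference was -1.25 in controls and -2.70 in knockouts.

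Signs changed for Cd163, Clec10a and Mrc1. Cd163 at 22 °C was 0.0030 with FPKM as deposited. Clec10a at 22 °C was 0.21 as deposited, 0.099 with an equal nuclear total, 0.063 without the 2 controls with R identifiers, 0.063 with sample weights and -0.063 to 0.10 without single animals. Mrc1 between temperatures in controls was -0.0012 to 0.43 without single animals. The Cd163 interaction was -0.070 with a pseudocount of 0.1, -0.055 as deposited, -0.15 with quantile normalization, -0.016 with an equal nuclear total, -0.14 with limma voom and -0.11 to 0.21 without single animals. The cause was not tested.

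Over all genes, the calls at 22 °C were 119 higher and 139 lower as reported, 3167 and 81 with FPKM as deposited, 386 and 75 with an equal nuclear total, 403 and 503 with sample weights, and 38 and 48 with the room-temperature groups alone. Those at 30 °C were 1154 and 691 as reported, 4280 and 291 as deposited, 2225 and 409 with an equal nuclear total, and 887 and 935 with quantile normalization. The equal nuclear total shifted the median of all genes by 0.12 and 0.19. No paired analysis was possible because the labels give animals no shared numbers. The interaction fit with only the groups compared is the reported fit itself. With 3 or 4 animals per group, small differences of weak genes such as Cd163 and Clec10a could not be resolved.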
